A study of Homo sapiens with 6 samples.

Results

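The genes described here encode the chromobox, polyhomeotic and SCM subunits of canonical Polycomb repressive complex 1 (PRC1). They were chosen by name, as 9 of the 26485 gene symbols counted: CBX2, CBX6, CBX7 and CBX8 (chromobox), PHC1, PHC2 and PHC3 (polyhomeotic), and SCMH1 and SCML2 (SCM). All 9 had enough reads to be tested, among 12937 tested genes. RNA was sequenced from AF22, an established line of human neural stem cells, in 6 libraries. The 3 control libraries are labelled shControl with a WT genotype, and the 3 knockdown libraries carry a knockdown of BMI1 and of COMMD3-BMI1, a transcript that runs through BMI1 from the gene before it; both groups are the same line, and the labels name no agent for the knockdown. The labels name 1 cell line and give no culture, clone or day for any library, so the p-values reflect the spread of these libraries only, and that spread may be technical.

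Canonical PRC1 joins a RING1 or RNF2 ubiquitin ligase and a PCGF protein, such as BMI1, to 1 chromobox, 1 polyhomeotic and, more loosely, an SCM subunit. The chromobox proteins carry an N-terminal chromodomain that reads trimethylated histone H3 tails laid down by Polycomb repressive complex 2, and a C-terminal box that holds the RING ligase. The polyhomeotic and SCM proteins end in a SAM domain, through which complexes join head to tail into larger assemblies. In neural stem cells BMI1 is known for holding down inhibitors of the cell cycle.

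Totals ran from 4962745 to 9640349 counts per library. BMI1, the stated target, had 85.1, 90.0 and 87.4 CPM (counts scaled to a common library size) in control libraries 1, 2 and 3. Its level was 39.9, 21.5 and 26.2 CPM in knockdown libraries 1, 2 and 3, all below the controls. Knockdown library 2 stood apart on the first principal component, at 40.2 where the other libraries lay between -25.5 and 11.5. All 11 neural stem cell markers found among the counted symbols were tested. Their summed level was 3719 to 3975 CPM in control, with a range of 3178 to 4271 CPM after knockdown. The summed level of 7 mesenchymal or neural crest markers was 1121 to 1411 CPM in control and 1408 to 2091 CPM after knockdown. Most of that sum was 1 gene, COL3A1, at 1168, 1104 and 900 CPM in control and 1342, 1680 and 1158 CPM after knockdown. The summed level of 4 endothelial markers, of which KDR was the most abundant, was 144 to 254 and 158 to 300 CPM. The part of such cells in the values given here was not tested. The neuronal marker RBFOX3 and the pluripotency markers NANOG and ZFP42 were at 0 counts in all 6 libraries, but others of these lists were detected. The summed level of 6 tested neuronal markers was 710 to 790 CPM in control and 725 to 824 CPM after knockdown. That of 3 tested pluripotency markers was 408 to 561 CPM in control and 482 to 600 CPM after knockdown. MAP2 was the most abundant of the former and LIN28A of the latter.

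The members lie on 6 chromosomes (GRCh38, GENCODE 29). CBX2 (chromosome 17, 79778132 to 79787983, plus strand) and CBX8 (79792132 to 79801683, minus strand) are neighbours, and CBX6 (38861450 to 38872314) and CBX7 (39120167 to 39152674) are both on the minus strand of chromosome 22. PHC2 (33323623 to 33431052) and SCMH1 (41027200 to 41242154) lie on the minus strand of chromosome 1. PHC1 is on chromosome 12 (8913896 to 8941467, plus strand), PHC3 on chromosome 3 (170086732 to 170181749, minus strand) and SCML2 on chromosome X (18239314 to 18354727, minus strand). Some exons of PHC1 share 1105 bases with M6PR on the opposite strand, and exons of CBX7, PHC2, PHC3 and SCMH1 share 1338, 167, 1781 and 129 bases with annotated antisense genes. Whether reads were counted by strand was not stated, so the counts of these 5 genes are uncertain by the reads of those partners. On the same strand, exons of BMI1 share 1000 bases with COMMD3-BMI1. Those of CBX7 share 274 with the processed pseudogene COX5BP7, and those of PHC2 share 12 with MIR3605. Counting by strand would not separate these, so the counts of BMI1 and CBX7 are uncertain by them as well. PHC1 also has an annotated processed pseudogene, PHC1P1, and reads that match both may have been dropped or counted in PHC1.

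The sequences before the start sites show what some of these genes share that their names do not tell, a high density of CpG dinucleotides. RefSeq promoter sequences (GRCh38.p14) were found for 7 of the 9 genes, CBX6, CBX7, PHC1, PHC2, PHC3, SCMH1 and SCML2, in 9 windows of 250 bases before an annotated start. Over all 35116 windows of that length the median was 11 CpG and 58% G and C, and the upper quartile was 23 CpG. The window of CBX6 held 45 CpG, more than 99.4% of all windows, and that of CBX7 held 41. SCML2 held 33, SCMH1 31 and PHC3 13. PHC1 and PHC2 have 2 windows each: those of PHC2 held 21 and 36 CpG, and those of PHC1 held 10, at 37.6% G and C, and 23, at 70.4%. Both PHC1 windows are printed because they differ most within a gene in G and C content, with CBX6 as the densest and SCML2 as the gene whose level varied most between libraries. Each is written 5′ to 3′ on the strand of its gene, CpG in capitals, and holds no annotated exon (the CBX6 and SCML2 windows were shortened for this, to 152 bases with 22 CpG and 211 bases with 26 CpG, and the second PHC1 window lies in an intron of the transcript that starts farthest upstream): CBX6 at chr22:38872315-38872466 (minus), PHC1 at chr12:8913593-8913842 and chr12:8914259-8914508 (plus), SCML2 at chrX:18354728-18354938 (minus).
CBX6: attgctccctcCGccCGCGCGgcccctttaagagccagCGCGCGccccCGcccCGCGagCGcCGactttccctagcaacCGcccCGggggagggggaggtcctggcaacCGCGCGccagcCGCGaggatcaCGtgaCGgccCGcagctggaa
PHC1, first window: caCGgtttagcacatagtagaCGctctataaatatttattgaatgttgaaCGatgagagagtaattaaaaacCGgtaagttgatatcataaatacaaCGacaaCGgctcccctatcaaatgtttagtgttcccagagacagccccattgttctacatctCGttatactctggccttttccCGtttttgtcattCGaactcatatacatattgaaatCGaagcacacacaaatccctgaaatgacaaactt
PHC1, second window: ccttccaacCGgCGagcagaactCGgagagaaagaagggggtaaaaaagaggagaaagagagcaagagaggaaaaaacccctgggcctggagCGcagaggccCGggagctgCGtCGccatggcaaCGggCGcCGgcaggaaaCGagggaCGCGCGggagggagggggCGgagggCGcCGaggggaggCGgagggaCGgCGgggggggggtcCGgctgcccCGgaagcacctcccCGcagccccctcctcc
SCML2: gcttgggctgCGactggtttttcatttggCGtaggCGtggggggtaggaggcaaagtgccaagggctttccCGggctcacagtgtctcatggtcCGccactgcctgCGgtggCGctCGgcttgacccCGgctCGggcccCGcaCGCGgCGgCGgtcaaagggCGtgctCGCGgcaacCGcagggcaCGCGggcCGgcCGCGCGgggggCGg
The first PHC1 window stands out among the 4 by its low CpG density, and the other 3 lie above the median of all windows.

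The first question was which subunits the control cells expressed. Levels of different genes were compared as CPM per kilobase of annotated exon. PHC2 was highest, at 52.9 ± 1.66 CPM per kilobase in control (mean ± SD, n = 3), 2.42-fold above CBX2 and 104-fold above CBX7, the lowest. CBX2 followed at 21.9 ± 0.847 CPM per kilobase, and BMI1 itself was at 20.4 ± 0.570. SCML2 (15.7 ± 5.05), SCMH1 (14.6 ± 1.21) and PHC1 (12.8 ± 0.180) came next, then CBX6 (7.88 ± 0.608), CBX8 (4.02 ± 0.287), PHC3 (3.19 ± 0.238) and CBX7 (0.510 ± 0.0715). Among neighbours in this order, the control ranges overlapped for BMI1 with SCML2 and for SCML2 with SCMH1, and not for the others. SCML2 spanned 11.7 to 21.4 CPM per kilobase, so its highest control library was also within the range of CBX2. With the longest transcript as the length, SCMH1 (19.6 CPM per kilobase) stood before SCML2 (15.7), and the other places were the same. In the knockdown libraries the order of the 9 members differed in PHC1 (13.03 ± 0.661) standing before SCMH1 (12.7 ± 1.72), which are within each other's spread, while BMI1 was at 6.82 ± 2.23.

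**Figure D1:**
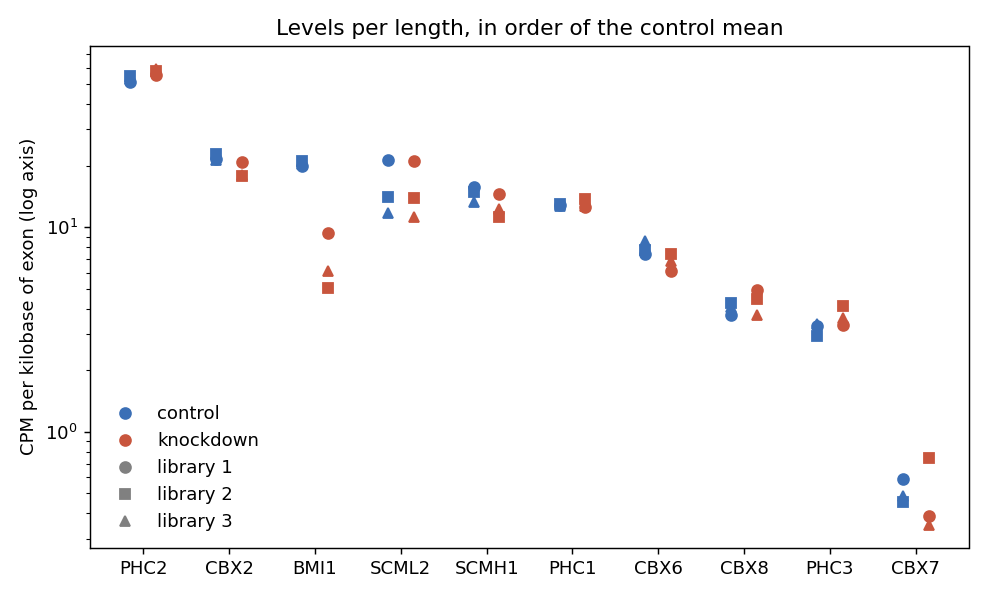
Level of each subunit gene and of BMI1 in CPM per kilobase of exon, on a log axis, in order of the control mean; each point is 1 library, blue for control and red for knockdown, with the library number as the shape. PHC2 lies at 51.3 to 54.6 in control, CBX7 at 0.456 to 0.591, and the 3 knockdown points of BMI1 fall below its control points while those of the members stay near theirs.

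Within each family 1 member, or both in the SCM family, made up most of the level. CBX2 gave 63.8 ± 1.64% of the summed level per kilobase of the 4 chromobox members in control and 61.8 ± 3.04% in knockdown libraries (n = 3 each), followed by CBX6 at 23.0 ± 1.61% and 22.3 ± 2.90%. PHC2 gave 76.8 ± 0.620% of the polyhomeotic level in control and 77.5 ± 1.03% in knockdown libraries. SCML2 and SCMH1 shared the SCM level almost evenly in control, at 51.0 ± 5.78% and 49.0 ± 5.78%. The shares of 2 members did not overlap between groups. The CBX8 share was 11.2, 12.1 and 11.9% in the controls against 15.3, 14.6 and 12.9% in knockdown libraries 1, 2 and 3, and that of PHC1 was 18.9, 18.5 and 18.4% against 17.6, 18.2 and 16.8%. Each gave p = 0.10 in an exact two-sided permutation test, the smallest that 3 against 3 libraries allow, and 0.40 adjusted over the 8 shares tested.

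The second question was whether these genes changed when BMI1 was lowered. By edgeR's quasi-likelihood test with Benjamini-Hochberg adjustment at 0.05, 0 of the 9 members passed, where 0% of all tested genes passed. At an unadjusted p under 0.05 there was 1 member, CBX2, and 14.4% of all genes. DESeq2 called 0 members and 1.1% of all genes, with 0 members and 12.1% of all genes at an unadjusted p under 0.05. Limma voom called 0 members and 0% of all genes, with 1 member and 14.9% of all genes at an unadjusted p under 0.05. With the library number as a block, a paired fit, 0 members passed while 4.63% of all genes were called higher and 5.39% lower, and 3 members (CBX2, CBX6 and SCMH1) had an unadjusted p under 0.05, as did 28.7% of all genes. The median log2 fold change of the members was -0.035, against -0.0029 over all tested genes (-0.0045 in the paired fit), and the median of its size was 0.12 against 0.15. The groups did not overlap in CPM for 1 member that was higher in knockdown, PHC2, and 1 that was lower, CBX2, where 9.28% of all tested genes did not overlap and were higher and 11.2% lower. These shares are close to those of 1 gene in 9. The RNA is of bulk cultures, in which fewer cells of a type and less RNA per cell cannot be told apart.

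**Figure D2:**
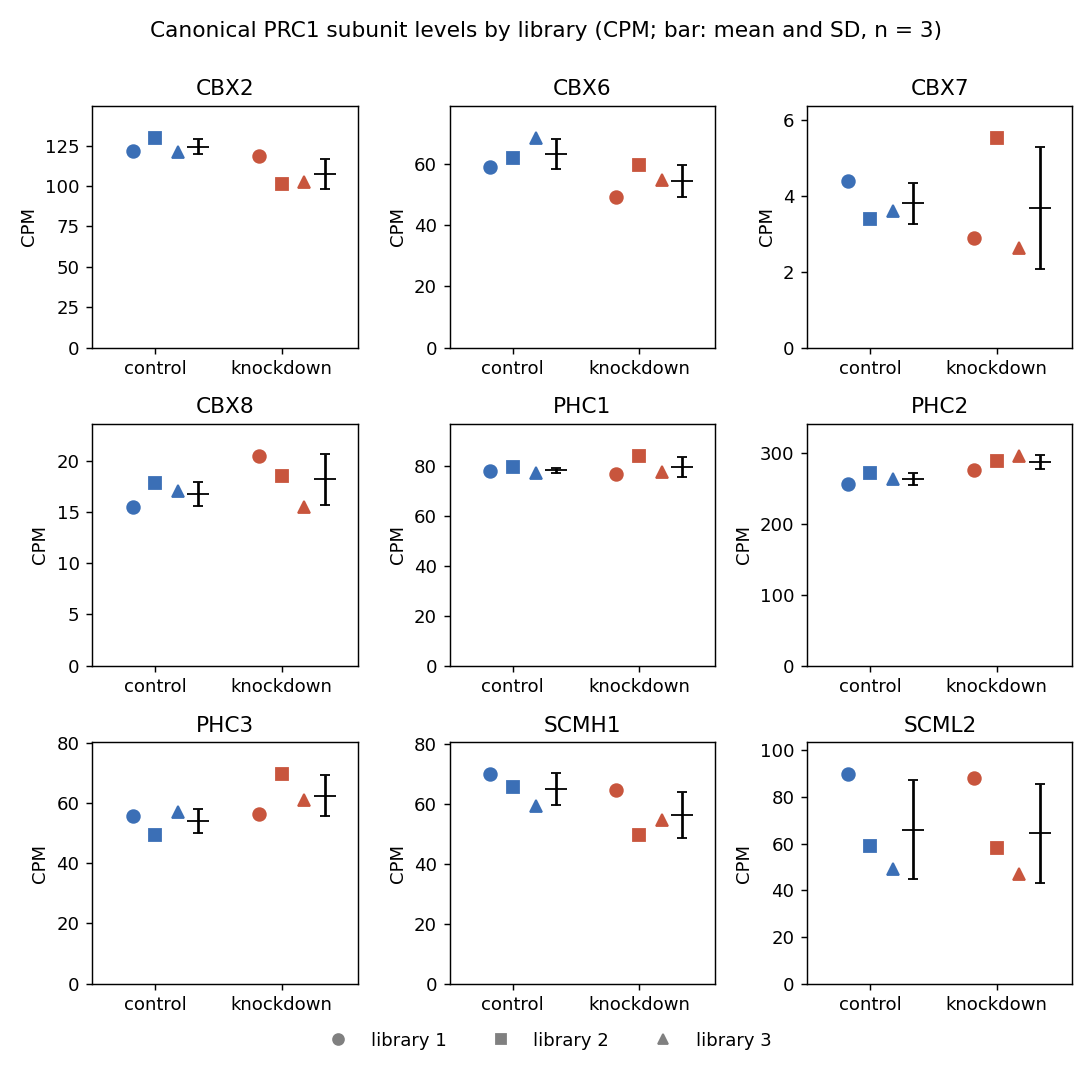
CPM of each of the 9 subunit genes in every library, with axes from 0; blue is control, red is knockdown, the shape gives the library number, and the black bar is the mean with the SD of 3 libraries. CBX2 lies lower and PHC2 higher in all knockdown libraries, and SCML2 shows the same values by number in both groups, from 89.9 and 88.1 in library 1 to 49.2 and 47.1 CPM in library 3.

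Of the chromobox genes, CBX2, whose product compacts chromatin through a charged stretch, had the smallest p. Control libraries 1, 2 and 3 had 121.8, 129.8 and 121.2 CPM of CBX2, and knockdown libraries 1, 2 and 3 had 118.3, 101.2 and 102.7 CPM. All knockdown values were below all control values, with library 1 close to the controls. The log2 fold change was -0.21 (SE 0.091, 95% interval -0.42 to -0.0057), with an edgeR adjusted p of 0.334, and in the paired fit it was -0.22 (SE 0.076, adjusted p 0.103). The log2 differences of CBX2 within pairs 1, 2 and 3 were -0.04, -0.36 and -0.24.

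CBX6, a chromodomain reader of the same family, had 59.2, 62.0 and 68.7 CPM in control and 49.2, 59.6 and 54.8 CPM in knockdown libraries. Each knockdown library was below the control library of its number, but knockdown library 2 was above control library 1, so the groups overlapped. The log2 fold change of CBX6 was -0.21 (SE 0.105, 95% interval -0.45 to 0.029), with an edgeR adjusted p of 0.401, and 0.134 in the paired fit. Without pair 2 the paired log2 fold change of CBX6 was -0.30, with an edgeR adjusted p of 0.00411. That fit called 2296 of 12846 genes. Pair 2 is the pair of the library that stood apart. It also had the largest fall of BMI1, at -2.05 on the log2 scale beside -1.09 and -1.73 in pairs 1 and 3.

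CBX8, a reader whose gene neighbours CBX2, had 15.4, 17.8 and 17.02 CPM in control and 20.5, 18.5 and 15.5 CPM in knockdown libraries, and its pair differences were 0.40, 0.06 and -0.13 on the log2 scale. CBX7, known for repressing the INK4 cell cycle inhibitors, had only 24, 22 and 25 counts in the controls, against 14, 41 and 25 after knockdown. Knockdown library 2 was the highest of the 6 for CBX7 and the other knockdown libraries the lowest, at 5.54 CPM beside 2.89 and 2.62. The log2 fold change was 0.10 (95% interval -0.25 to 0.46) for CBX8 and -0.04 (-0.81 to 0.74) for CBX7. At the depth of CBX7 a change within these bounds was not detectable.

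Of the polyhomeotic genes, PHC2, whose SAM domain polymerises and clusters Polycomb complexes, had 255.2, 271.7 and 263.3 CPM in control and 276.3, 288.3 and 295.7 CPM in knockdown libraries. Every knockdown value was above every control value. The knockdown mean was 8.85% above the control mean, which did not pass the test. The log2 fold change of PHC2 was 0.12 (SE 0.082, 95% interval -0.064 to 0.31), with an edgeR adjusted p of 0.518, and 0.222 in the paired fit. Without pair 2 the paired log2 fold change of PHC2 was 0.14 with an adjusted p of 0.0327. CBX6 and PHC2 were the only members past the threshold in any of the 21 alternative fits, both in that one. It had 2 pairs left and called 2296 of 12846 genes.

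PHC3, its paralog, had 55.7, 49.5 and 57.0 CPM in control and 56.2, 69.6 and 61.1 CPM in knockdown libraries. Knockdown library 2 was the highest, and control library 3 was above knockdown library 1, so the groups overlapped. The log2 fold change of PHC3 was 0.21 (SE 0.109, 95% interval -0.042 to 0.46), with an edgeR adjusted p of 0.423. It was 0.12 without knockdown library 2, and 0.063 in the paired fit without pair 2. PHC1, in which a mutation has been linked to primary microcephaly, had the smallest SE of the members in the unpaired fit. It had 77.7, 79.3 and 77.2 CPM in control and 76.5, 83.9 and 77.5 CPM in knockdown libraries, and its log2 fold change was 0.02 (95% interval -0.16 to 0.21).

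**Figure D3:**
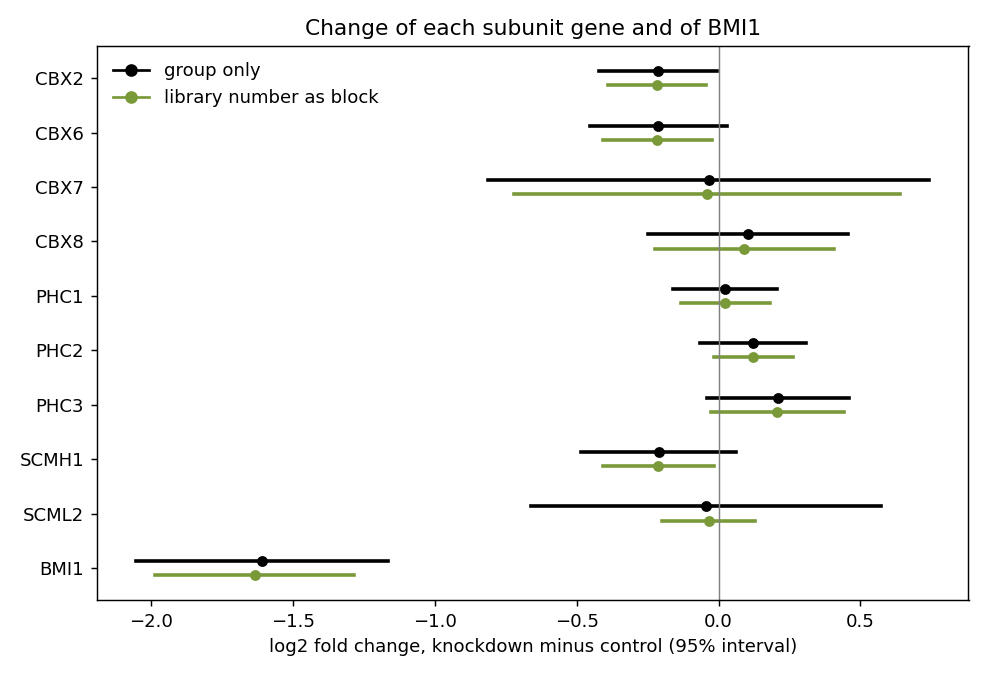
Log2 fold change of knockdown against control for each subunit gene and for BMI1, with 95% intervals from edgeR, in black for the fit with the group only and in green with the library number as a block. The interval of BMI1 runs from -2.05 to -1.16, and no member's interval reaches below -0.81.

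The summed chromobox level was 33.1, 35.3 and 34.4 CPM per kilobase in the controls and 32.2, 30.4 and 28.95 after knockdown, and the summed polyhomeotic level was 67.4, 70.6 and 69.0 against 71.4, 75.8 and 75.8. The chromobox sums after knockdown were thus all below the controls and the polyhomeotic sums all above them. The summed chromobox level per kilobase divided by the polyhomeotic one was 0.491, 0.500 and 0.499 in control libraries 1, 2 and 3, against 0.451, 0.401 and 0.382 in the knockdown libraries of those numbers. The groups did not overlap in this ratio, which does not depend on the scaling between libraries. The ratio was formed after the values of CBX2 and PHC2 were seen, and it was not tested.

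Of the SCM genes, SCMH1, a homolog of the fly Sex comb on midleg gene whose product binds polyhomeotic through its SAM domain, had 70.0, 65.7 and 59.3 CPM in control and 64.7, 49.7 and 54.5 CPM in knockdown libraries. Each knockdown library was below the control library of its number, and the groups overlapped. The log2 fold change of SCMH1 was -0.21 (SE 0.120, 95% interval -0.48 to 0.062), with an edgeR adjusted p of 0.453, and 0.146 in the paired fit. It was -0.13 without knockdown library 2, and -0.12 in the paired fit without pair 2.

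SCML2, a homolog of the same fly gene known for its role in the male germline, differed by library number and hardly by group. Control libraries 1, 2 and 3 had 89.9, 58.9 and 49.2 CPM of SCML2, and knockdown libraries 1, 2 and 3 had 88.1, 58.3 and 47.1 CPM. Libraries with the same number were within 0.061 log2 units of each other, while the mean log2 CPM of the numbers spanned 0.88. The unpaired log2 fold change of SCML2 was -0.04 (SE 0.270, 95% interval -0.66 to 0.57), and in the paired fit it was -0.04 (SE 0.072, 95% interval -0.20 to 0.13). A test of the library number in the paired fit, chosen after these values were seen, gave SCML2 an edgeR adjusted p of 0.00468, rank 35 of the 12937 genes. It was the only one of the 9 members to pass, where 6.07% of all tested genes passed. The lowest adjusted p among the other members was 0.225, for SCMH1. The labels do not say what a library number stands for.

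**Figure D4:**
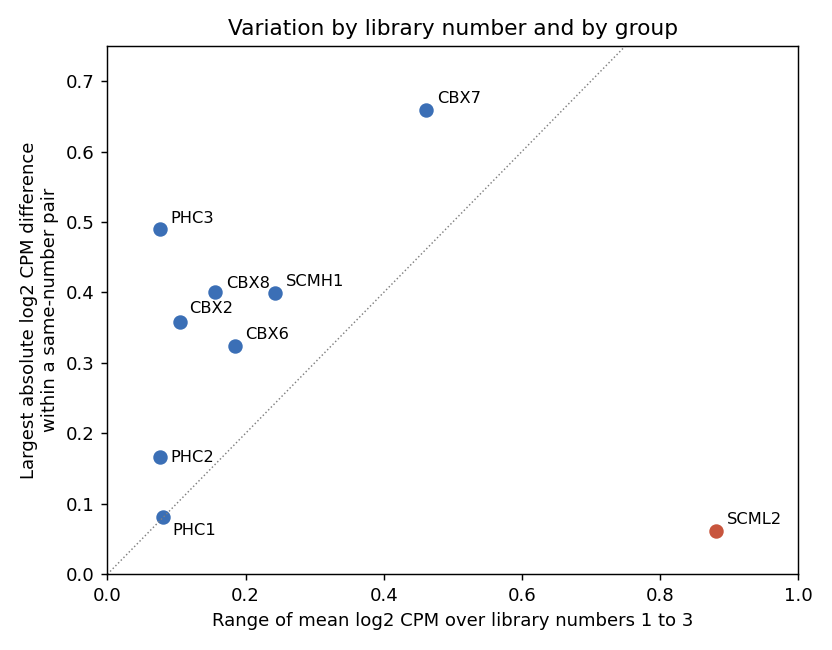
For each of the 9 subunit genes, the range of the mean log2 CPM over library numbers 1 to 3 (x axis) and the largest absolute log2 CPM difference between knockdown and control within a same-number pair (y axis); the dotted line marks equal values. SCML2, in red, lies at 0.88 and 0.061, and the other members have a pair difference at or above their range over the numbers.

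The genes with the pattern most like a member were sought over the 6 libraries, as the smallest root-mean-square difference of centred log2 CPM among 10437 other genes of at least 10 CPM. For CBX2 these were STAU2 (0.012), PYGO2 (0.018) and DNAJC21 (0.019), and for CBX6 they were NSUN5 (0.045), EPHB3 (0.046) and DCUN1D2 (0.047). For SCMH1 they were C1orf106 (0.027), LMNB2 (0.030) and GJC1 (0.031). SCML2, added after its values were seen, was closest to NCKAP5, at a root-mean-square difference of 0.074 beside its own SD of 0.40 log2 units. NCKAP5 had 127.2, 98.9 and 76.0 CPM in control and 131.3, 87.2 and 72.9 CPM in knockdown libraries, and EPHA3 (0.119) and LYRM7 (0.119) came next.

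The other genes of the Polycomb system were read from the same fits. In the unpaired fit none passed, and the counts given here are of the paired fit, which called 4.63% of all tested genes higher and 5.39% lower. Calls of 1 of 14 or 1 of 21 genes are near those shares. Of 25 other PRC1 genes none was higher and 2 were lower, BMI1 and TFDP1, a partner of E2F factors (-0.37, edgeR adjusted p 0.0443), with a median of -0.04. DCAF7, the most abundant of them, was at 0.13. Of 14 PRC2 genes EZH2, the methyltransferase that writes the mark the chromobox proteins read, fell by 0.51 (SE 0.106, adjusted p 0.0288), and RBBP4 was at 0.0078, with a median of -0.11. Of 8 HP1 and other chromodomain readers SUV39H1, a methyltransferase, fell by 0.53 (adjusted p 0.0428), while CBX5, a heterochromatin chromobox gene, was at -0.15, and the median was -0.11. Of 9 MBT and SAM domain genes related to the SCM genes L3MBTL3 rose by 0.52 (adjusted p 0.0256), MBTD1 was at 0.04 and the median was 0.25. Of 21 deubiquitinase and trithorax genes ASH1L, a methyltransferase, rose by 0.43 (adjusted p 0.0469), SMARCA4 was at -0.11 and the median was -0.019. Of a list of 13 PRC1 targets (INK4 genes, CDKN1A and developmental regulators) 9 were tested, with a median of 0.31. Of the 13, 1 was at 0 counts in all 6 libraries. The cell cycle inhibitor genes CDKN1A (0.48) and CDKN2B (0.79) and the transcription factor gene ZIC1 (0.31) rose, and PBX3 (-0.31) fell. CDKN2B was the only INK4 gene called. CDKN2B had 15 to 129 counts per library and overlapping groups.

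Of 20 proliferation genes 19 were lower in the paired fit and none was higher, with a median of -0.56. The 6 with the smallest p were MKI67 (-0.88), CDC20 (-0.69), MCM2 (-0.62), UBE2C (-0.54), PLK1 (-0.66) and BUB1 (-0.68), and TOP2A, the most abundant, was at -0.47. Their summed level was 5249, 4642 and 4526 CPM in control and 4548, 2377 and 3228 CPM in knockdown libraries. The median differences of these genes in pairs 1, 2 and 3 were -0.18, -1.03 and -0.52 on the log2 scale, and those of EZH2 were -0.22, -0.84 and -0.47. CBX2 had its pair differences in the same order, smallest in pair 1 and largest in pair 2, and those of SCMH1 were -0.11, -0.40 and -0.12. The order is not particular to these genes. BMI1 itself had it, at -1.09, -2.05 and -1.73, and PHC3 had it in the upward direction, at 0.01, 0.49 and 0.10. CBX6 had its smallest difference in pair 2, at -0.06, beside -0.26 and -0.32. The part of proliferation in the values of CBX2 and SCMH1 was not tested.

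**Figure D5:**
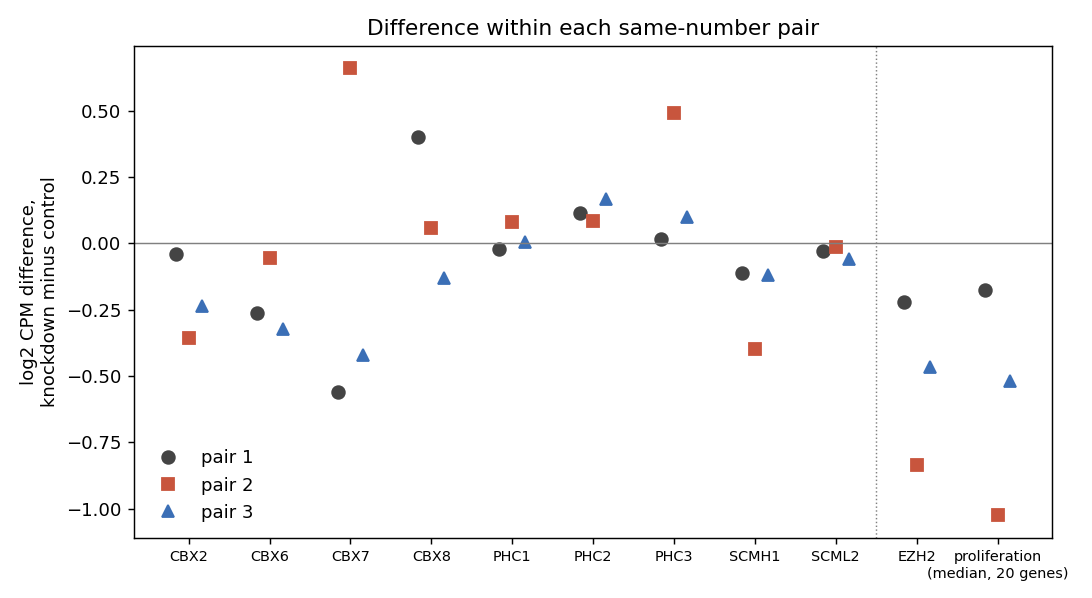
Log2 CPM difference of knockdown minus control within each pair of libraries of the same number, for the 9 subunit genes and, right of the dotted line, for EZH2 and the median of 20 proliferation genes; the shape gives the pair. EZH2 and the proliferation median are lowest in pair 2, at -0.84 and -1.03, and the 3 points of SCML2 lie between -0.06 and -0.02.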

How the data were processed

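RNA of 6 AF22 libraries, 3 control and 3 knockdown, was sequenced from directional libraries, per the labels' protocols. The authors deposited raw counts, 1 whole number per gene symbol, judged from the values. Trim Galore 0.6.6, STAR 2.7.10a, bedtools and hg38 come from the submitters' processing notes. Counting program, annotation and strandedness: not given in the sources used here. Totals are 4962745 to 9640349 counts, so low genes carry large errors. Any 2 libraries of a group differed by more than sampling noise (chi-square per gene at least 3.19).

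Genes passing filterByExpr were fitted with edgeR 4.0.16 (R 4.3.3): TMM factors, quasi-likelihood test, group as the only term, Benjamini-Hochberg adjustment over all genes at 0.05. The SE is the log2 fold change over the square root of F, and intervals use the t distribution of the fit. Log2 CPM values use a prior count of 2. Deviations of same-numbered libraries correlated at 0.563, 0.467 and 0.535 across genes, all above 0.1, so a paired fit with the number as a block is given too; the pairing comes from the data. Exon lengths are of GENCODE 29 (GRCh38). Named genes are all members, BMI1, list genes past the threshold (at most 6 per list) with the most abundant of each list, and the 3 closest genes of the 3 members with the smallest paired p. The fits were tested on simulated data with log2 changes of 0.6 and 1.5 in size. The unpaired fit recovered 20% of the smaller changes and 95% of the larger. The paired fit recovered 96% and 100%, on data simulated with the number as a block, a setting that favours it. The largest change of a member in the unpaired fit was 0.21. That size was not simulated for either fit, so the absence of calls does not exclude changes of that size. The paired fit made more false calls in the simulation than its threshold allows, so its calls near the threshold are less certain. Alternatives were other scalings and filters, DESeq2 1.42.0, limma voom (limma 3.58.1), another threshold, another gene length and left-out libraries or pairs. The members and lists were chosen with earlier results of these data known.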

Additional observations from a re-analysis of the deposited data

How the results depend on the processing

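No member passed in the unpaired edgeR, DESeq2 or limma voom fits, with any scaling or filter tried, or with the replicate block at an adjusted p of 0.05 or 0.10. Leaving out libraries or pairs gave 0 to 2 members called, the 2 being CBX6 and PHC2 without pair 2 in the paired fit. Over all genes the unpaired count was 0, and it was 2 with no filter and 142 with DESeq2. The replicate block gave 1296 calls, 1335 with RLE factors, 1283 with total count scaling (494 higher, 789 lower), 1328 with at least 1 CPM in 3 libraries, 590 with DESeq2, 1390 with limma voom and 2442 at an adjusted p of 0.10. Leaving out libraries or pairs gave 0 to 2296, with 665 in the unpaired fit without knockdown library 1. The direction of 4 members turned only on leaving out a library or pair: CBX7 ran from -0.52 to 0.19, CBX8 from -0.035 to 0.22, PHC1 from -0.019 to 0.052 and SCML2 from -0.32 to 0.25 on the log2 scale. CBX2, CBX6, PHC2, PHC3 and SCMH1 kept their direction in all 21 alternative fits, though PHC3 ran from 0.063 to 0.30 and SCMH1 from -0.31 to -0.12, both nearest 0 without pair 2. Where an arm was left with 2 libraries, or the paired fit with 2 pairs, fewer libraries measured the spread. SCML2 passed between library numbers under all 4 alternatives tried for that test, which were chosen after seeing the data (649 to 916 genes called). Depth limits CBX7 most, at 14 to 41 counts per library.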
